A study of Mus musculus with 21 samples.

Results

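The genes described here mark the endothelium of the pancreatic islet and the signalling of vascular endothelial growth factor (VEGF) between islet cells and their capillaries. They were 10 of the 55536 genes counted, identified by symbol and matched to the gene identifiers of the count files, and all 10 were among the 27229 genes with at least 10 read pairs over the 21 samples. RNA came from islets of male CBA mice, an inbred strain, on regular diet (RD), on high-fat diet (HFD) or on HFD that contained O304 at 0.8 mg per g (HFD-O304), with 7 samples in each group. O304 is a small molecule that activates AMPK, a kinase that senses cellular energy. The diets began at 10 weeks of age and lasted 10 weeks by the results text of the study and 9 weeks by its methods, and each sample held 150 islets, drawn from islets combined from 5 mice. The HFD group is the drug-free counterpart of HFD-O304, and RD islets had neither the added fat nor the drug. Because each library is a pool, the p-values measure the spread between pools, not between single mice.

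Read pairs on genes ranged from 13809266 to 48922569 per sample, and the shallowest sample, HFD-O304 replicate 2, still held 189 read pairs of Tek and 4993 of Vegfa, the lowest and the highest count of the 10 genes there. The title of HFD-O304 replicate 1 names the HFD-O304 group while its diet label reads HFD. It was kept in the group of its title, so the calls on HFD-O304 islets were also made without it. Over the 10 genes and all gene lists used here, 63 of 71 calls against HFD islets and 13 of 17 against RD islets then still passed, and none changed sign. The calls lost were those of Angpt2, Cavin2, Tcf15, Hgf, Ankrd37, Col1a2, Sox9 and Ins1 against HFD islets and of Pecam1, Cavin1, Abcc9 and Acta2 against RD islets. The summed level of the hormone genes Ins1, Ins2, Gcg, Sst and Ppy, which define islet endocrine cells, was 9310540 to 12445581 normalised read counts per sample. Markers of exocrine acinar cells, which surround the islets, ranged from 721.0 to 306365 normalised read counts summed over 10 genes, and 0 of these 10 passed the edgeR test in any comparison, with 1 at an unadjusted p under 0.05 (lower in HFD-O304 against RD) and 0 called by DESeq2, another count model. All 10 had a log2 fold change under 0 in each comparison. The median log2 fold changes were -0.23 in HFD against RD, -1.12 in HFD-O304 against RD and -0.84 in HFD-O304 against HFD islets. The summed level of the median sample went the other way, lowest for RD islets (16698), followed by HFD (28169) and then HFD-O304 islets (40355). The highest sum was instead an RD sample (306365), with at most 98743 among HFD-O304 samples. Equal carry-over of acinar RNA was therefore not shown.

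Islets are threaded by a dense network of fenestrated capillaries. Endocrine cells secrete VEGF-A, the product of Vegfa, which binds the receptors VEGFR2 (Kdr) and VEGFR1 (Flt1) on endothelial cells and maintains the capillaries and their fenestrae. Angiopoietins act on a separate receptor system, TIE2 (Tek) with its relative TIE1 (Tie1), which steadies mature vessels. Pecam1 (CD31), Cdh5 (VE-cadherin) and Esam encode adhesion molecules of the junctions between endothelial cells. Emcn encodes endomucin, a sialomucin of the endothelial surface, and Plvap encodes the protein of the diaphragms that span fenestrae and caveolae.

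The sequences upstream of the 4 receptor genes are shown because they include Tek, whose difference against HFD islets was the lowest of the 10 genes, its relative Tie1, and the receptors of VEGF-A. Each run is the 250 bases before the RefSeq start site on GRCm38.p6, written 5′ to 3′ on the strand of the gene. Capitals mark AGGAAG and CGGAAG on either strand, forms of the site bound by ETS factors such as ERG and FLI1, which are known regulators of endothelial genes. This motif was chosen after the sequences had been seen. Tek lies on the plus strand (chr4:94739039-94739288), and Tie1 (chr4:118489850-118490099), Kdr (chr5:75978456-75978705) and Flt1 (chr5:147726012-147726261) lie on the minus strand.
Tek: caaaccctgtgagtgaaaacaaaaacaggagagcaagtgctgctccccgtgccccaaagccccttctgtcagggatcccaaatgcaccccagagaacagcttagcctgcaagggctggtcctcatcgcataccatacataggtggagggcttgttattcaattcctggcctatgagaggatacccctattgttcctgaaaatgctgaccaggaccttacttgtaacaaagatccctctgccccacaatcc
Tie1: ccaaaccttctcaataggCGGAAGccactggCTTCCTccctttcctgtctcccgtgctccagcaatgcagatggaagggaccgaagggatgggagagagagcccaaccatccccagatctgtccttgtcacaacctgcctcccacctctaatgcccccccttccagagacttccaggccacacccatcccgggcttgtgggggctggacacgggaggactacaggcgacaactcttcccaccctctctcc
Kdr: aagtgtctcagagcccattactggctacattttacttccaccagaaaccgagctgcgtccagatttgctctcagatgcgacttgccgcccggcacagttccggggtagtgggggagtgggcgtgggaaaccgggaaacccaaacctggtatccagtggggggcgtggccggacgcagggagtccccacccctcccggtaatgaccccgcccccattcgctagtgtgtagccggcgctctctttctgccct
Flt1: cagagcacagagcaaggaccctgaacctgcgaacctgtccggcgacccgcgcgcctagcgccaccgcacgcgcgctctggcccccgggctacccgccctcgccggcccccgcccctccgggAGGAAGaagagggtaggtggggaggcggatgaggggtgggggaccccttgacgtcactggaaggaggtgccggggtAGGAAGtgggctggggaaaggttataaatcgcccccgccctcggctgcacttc
Flt1 held 2 matches, which begin 129 and 53 bases before its start, and Tie1 held 2, which begin 232 and 219 bases before its start. The matches did not overlap each other. Tek and Kdr held 0 matches in this window. Emcn, whose window is not printed, held 2 matches, and 39.2% of the 32851 promoters of the RefSeq table held at least 1. The G and C content of the window was 70.4% in Flt1, 61.6% in Kdr, 60.4% in Tie1 and 51.2% in Tek. The table held 6 of the 10 genes, these 4 with Emcn and Vegfa.

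Levels per length placed Plvap and Vegfa far above the other genes. For this order, normalised read counts (counts divided by a size factor for each sample) were divided by the exon length in kilobases. In RD islets Plvap, the diaphragm gene, reached 2796 ± 264 per kilobase (mean ± SD, n = 7) and Vegfa, the ligand, 2761 ± 274, and these neighbours differed by less than 1 SD. Kdr followed at 620 ± 85.0. Emcn (418 ± 42.3), Esam (363 ± 21.4) and Pecam1 (343 ± 25.5) did not differ from the next of them by more than their spread, nor did Flt1 (277 ± 33.4) and Cdh5 (254 ± 27.5). The TIE receptors were lowest, Tek at 201 ± 21 and Tie1 at 171 ± 14.8, again within their spread. In HFD-O304 islets Vegfa stood first with 3049 ± 194 and Tek last with 121.4 ± 20.5, but neither the gap of Vegfa to Plvap (2390 ± 582) nor that of Tie1 (156 ± 24.3) to Tek was beyond the spread. Kdr came next after Plvap and Vegfa in all 3 groups.

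**Figure D1:**
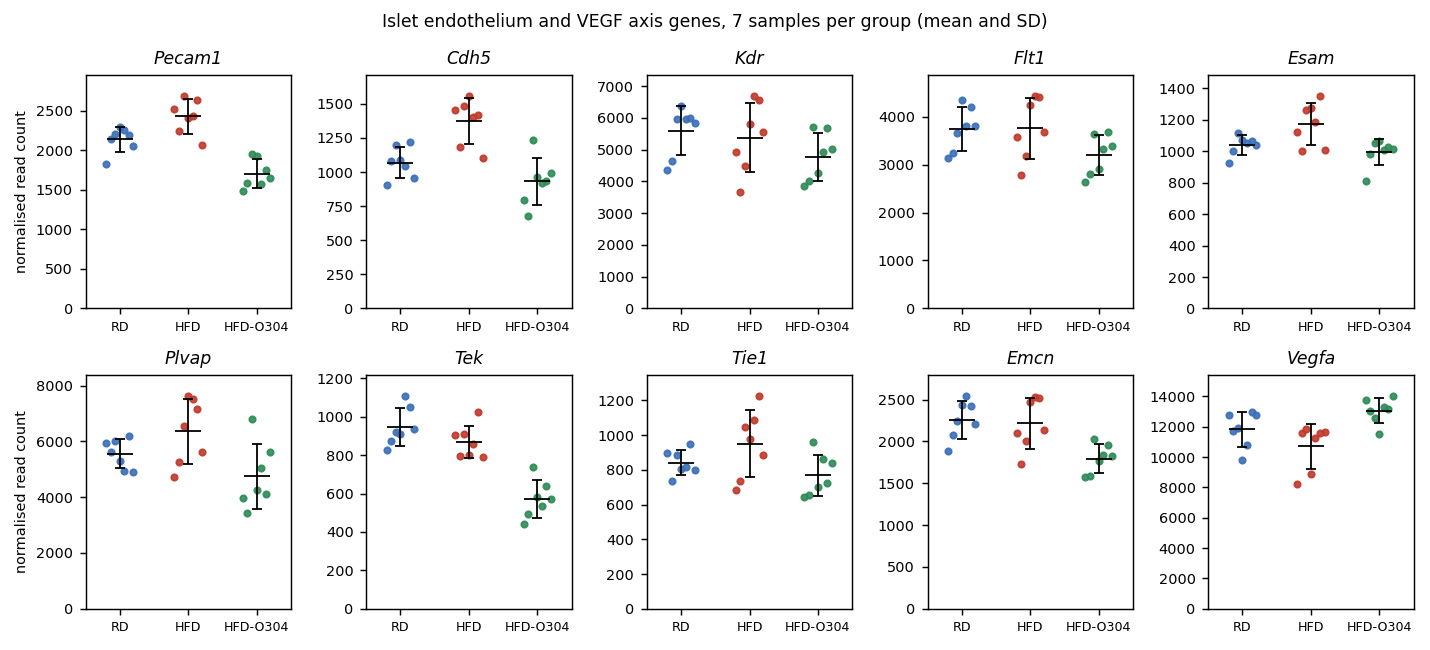
Normalised read counts of the 10 genes (y axis, from 0, with a scale for each gene) in each sample of each group (x axis), with the mean (bar) and SD (error bar) of 7 samples. The HFD-O304 samples of Tek (442.4 to 737.3) lie below every RD and HFD sample, and those of Pecam1 (1485 to 1958) below every HFD sample.

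The effect of the diet alone was read from HFD against RD islets. None of the 10 genes passed the test (edgeR, adjusted p under 0.01), with 0 of 10 called higher where 2.00% of the 27229 genes were, and 0 of 10 called lower where 1.54% were. At an unadjusted p under 0.05 there were 3, Cdh5, Pecam1 and Esam, the genes of the cell junctions, all with higher means in HFD islets. DESeq2 called 1 of 10, Cdh5 (adjusted p 0.00695). The median log2 fold change of the 9 endothelial genes was 0.17, against -0.0044 over all genes tested. In bulk RNA, a change in the number of cells of a type cannot be told apart from a change in the RNA per cell.

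Cdh5, which encodes the cadherin that holds endothelial cells to each other, had the lowest adjusted p of the 10 genes in this comparison. Its lowest, median and highest normalised read counts were 903.2, 1079 and 1218 in RD islets and 1102, 1421 and 1559 in HFD islets. The groups overlapped, with 5 of 7 HFD samples above the highest RD sample, and the log2 difference was 0.35 (SE 0.10, adjusted p 0.0248). Without HFD replicate 7, the lowest HFD sample, the adjusted p was 0.00750. Pecam1 differed by 0.18 (SE 0.07, adjusted p 0.127) and Esam by 0.17 (SE 0.07, adjusted p 0.146). For the receptors, the intervals of the difference spanned 0. Kdr differed by -0.06 (95% interval -0.29 to 0.17, taken as 1.96 SE to each side), Flt1 by -0.0008 (-0.20 to 0.20), Tek by -0.13 (-0.31 to 0.05) and Tie1 by 0.17 (-0.04 to 0.39). Emcn differed by -0.03 (-0.19 to 0.13) and Plvap by 0.19 (-0.05 to 0.43). Vegfa was 9837, 11920 and 12978 in RD islets and 8255, 11575 and 11821 in HFD islets. All 7 HFD samples were below the RD mean, but the groups overlapped and the log2 difference of -0.14 (SE 0.08, adjusted p 0.322) did not pass the test.

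The effect of the drug was read from HFD-O304 against HFD islets, both on high-fat diet. By the study, HFD-O304 mice also ate more than HFD mice and had lower glucose and insulin levels. Direct and indirect effects of the drug on the islets therefore cannot be told apart here. Here 3 of 10 genes were called lower, Pecam1, Cdh5 and Tek, where 6.79% of all genes were, and 0 of 10 called higher, where 5.08% were. At an unadjusted p under 0.05, edgeR had 8 genes lower and 1 higher, Vegfa, and DESeq2 called 6 lower and 1 higher. The log2 fold change was under 0 in 9 of 10 genes, the exception being Vegfa, and in 46.6% of all genes. For 2 of 10 genes, Pecam1 and Tek, all HFD-O304 samples were below all HFD samples, as were those of 3.61% of all genes. The median log2 fold change of the 9 endothelial genes was -0.30, against 0.03 over all genes tested. This comparison shares the HFD samples with that of HFD against RD, so the HFD level enters both.

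Tek, the angiopoietin receptor, had the lowest fold change of the 10 genes. Its lowest, median and highest values were 790.1, 857.5 and 1023 in HFD islets and 442.4, 571.7 and 737.3 in HFD-O304 islets. All 7 HFD-O304 samples lay below the lowest HFD sample, and Tek fell by 0.59 on the log2 scale (SE 0.09, adjusted p 2.50e-05), to 0.664 of its HFD level. Pecam1, the platelet endothelial adhesion molecule, was 2061, 2427 and 2688 in HFD islets and 1485, 1643 and 1958 in HFD-O304 islets. Again no samples overlapped, and Pecam1 fell by 0.50 (SE 0.07, adjusted p 6.14e-06). Cdh5 was 679.2, 936.7 and 1238 in HFD-O304 islets, so that 6 of 7 samples lay below the lowest HFD sample and replicate 3 within the HFD range, and it fell by 0.55 (SE 0.10, adjusted p 0.000202). Without HFD-O304 replicate 1 the 3 genes still passed, with log2 differences of -0.54 for Tek, -0.48 for Pecam1 and -0.51 for Cdh5.

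Another 4 genes had an adjusted p between 0.01 and 0.05, and so did not pass. Vegfa was 11520, 13204 and 14022 in HFD-O304 islets, and 6 of 7 samples were above the highest HFD sample (11821). Its log2 difference was 0.29 (SE 0.08, adjusted p 0.0109), the only positive value of the 10. Emcn was 1736, 2132 and 2534 in HFD islets and 1578, 1822 and 2028 in HFD-O304 islets, a difference of -0.30 (SE 0.08, adjusted p 0.0111). Plvap was 4716, 6565 and 7624 in HFD islets and 3443, 4257 and 6807 in HFD-O304 islets, a difference of -0.41 (SE 0.12, adjusted p 0.0181). The spread of Plvap in HFD-O304 islets was wide, with a coefficient of variation of 24.3%, and replicates 3, 5 and 7 lay within the HFD range. Esam was 1005, 1185 and 1353 in HFD islets and 813.4, 1014 and 1067 in HFD-O304 islets, a difference of -0.23 (SE 0.07, adjusted p 0.0184). These 4 genes lay near the threshold, and leaving out HFD replicate 2, 3 or 7 or HFD-O304 replicate 3 raised the number of genes called from 3 to 6, 5, 5 and 5.

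The VEGF receptors and Tie1 had the highest adjusted p of the 10 genes between HFD-O304 and HFD islets. Kdr was 3673, 5554 and 6699 in HFD islets and 3865, 4917 and 5708 in HFD-O304 islets, so that the lowest of these 14 samples was an HFD sample. Its log2 difference was -0.16 (95% interval -0.39 to 0.07, adjusted p 0.397). Flt1 was 2775, 3680 and 4433 in HFD islets and 2636, 3319 and 3679 in HFD-O304 islets, a difference of -0.22 (-0.42 to -0.03, adjusted p 0.128). Tie1 was 684.2, 978.9 and 1224 in HFD islets and 644.5, 721.7 and 961.2 in HFD-O304 islets, a difference of -0.30 (-0.51 to -0.08, adjusted p 0.0573). Tie1, unlike Tek, thus overlapped between these groups, and whether the fold changes of Tek and Tie1 differ was not tested.

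**Figure D2:**
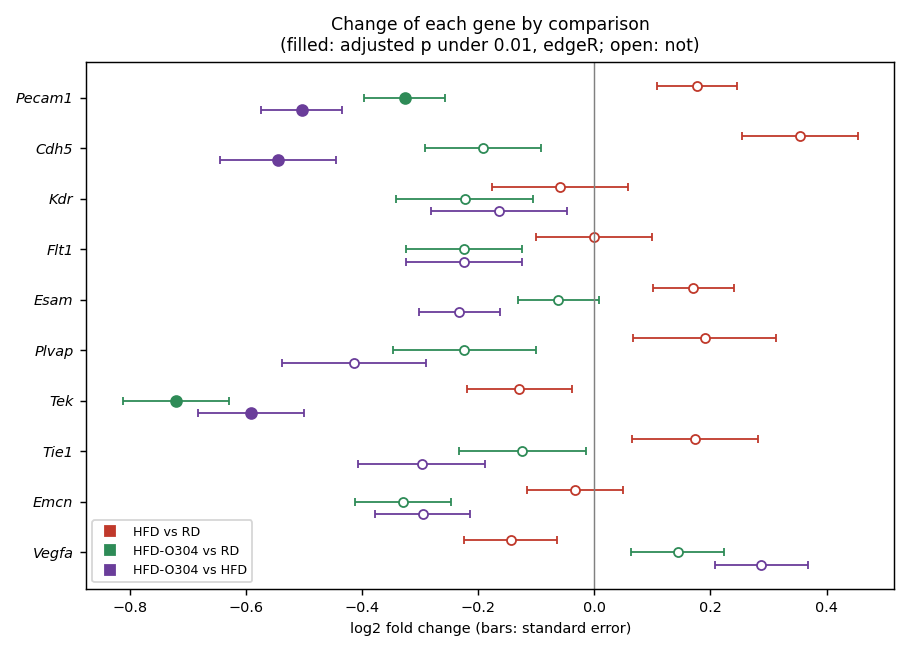
Log2 fold change (x axis) of the 10 genes (y axis) in HFD against RD, HFD-O304 against RD and HFD-O304 against HFD islets, with bars of 1 standard error, filled where the adjusted p was under 0.01. Tek is filled in both comparisons of HFD-O304 islets (-0.72 and -0.59), and no gene is filled in HFD against RD.

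HFD-O304 islets were also set against RD islets, which asks what differed from lean islets. Here 2 of 10 genes were called lower, Pecam1 and Tek, where 0.903% of all genes were, and 0 of 10 called higher, where 0.404% were. At an unadjusted p under 0.05, edgeR had 4 genes lower and 0 higher, and DESeq2 called 3 lower and 0 higher. The log2 fold change was under 0 in 9 of 10 genes and in 48.6% of all genes, and the median of the 9 endothelial genes was -0.22, against 0.0078 over all genes tested. Tek was 825.3, 922.9 and 1108 in RD islets, so that every HFD-O304 sample (at most 737.3) was below every RD sample, which held for 1 of the 10 genes and 0.870% of all genes. It fell by 0.72 on the log2 scale (SE 0.09, adjusted p 1.53e-05). Pecam1 was 1824, 2195 and 2295 in RD islets, with 5 of 7 HFD-O304 samples below that range, and fell by 0.33 (SE 0.07, adjusted p 0.00693). The call of Pecam1 was close to the threshold and was lost in 11 of the 14 fits that left out 1 sample (adjusted p 0.00228 to 0.0238 over the 14), also without HFD-O304 replicate 1 (0.0238). That of Tek held in all 14.

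The other 8 genes did not pass against RD. Emcn was 1888, 2238 and 2542 in RD islets, and all 7 HFD-O304 samples were below the RD mean, a difference of -0.33 (SE 0.08, adjusted p 0.0238). Emcn passed against RD with DESeq2 (adjusted p 0.00536), in a fit of the 2 groups alone (0.00846) and with the library set, described next, as a covariate (0.00792), and in 0 of the 14 fits that left out 1 sample (0.0117 to 0.0696). Flt1 (3126, 3803 and 4353 in RD islets) and Kdr (4358, 5977 and 6364) each differed by -0.22, with adjusted p of 0.287 and 0.399. Cdh5, called against HFD islets, differed from RD islets by -0.19 (SE 0.10, adjusted p 0.396). Plvap (4887, 5622 and 6195 in RD islets) differed by -0.22 (adjusted p 0.432). Tie1 (732.9, 814.3 and 946.8) differed by -0.12 and Esam (927.8, 1056 and 1119) by -0.06, with adjusted p of 0.675 and 0.767. Vegfa differed by 0.14 (SE 0.08, adjusted p 0.437), with 5 of 7 HFD-O304 samples above the highest RD sample.

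Replicates 1 to 4 and 5 to 7 carry separate series of library numbers, so each set was also fitted alone. Tek in HFD-O304 against HFD islets differed by -0.59 in replicates 1 to 4 and -0.60 in replicates 5 to 7, Pecam1 by -0.51 in each, and Cdh5 by -0.62 and -0.45, and all passed in each set. Tek against RD islets differed by -0.65 (adjusted p 0.0161) and -0.82 (adjusted p 0.000235), so replicates 1 to 4 alone did not pass. Pecam1 against RD islets differed by -0.29 and -0.39 and passed in neither set. Vegfa in HFD-O304 against HFD islets differed by 0.32 and 0.24. A test of whether a comparison differed between the sets called 0 of 27229 genes in each of the 3 comparisons (edgeR interaction, adjusted p under 0.01), with 1862, 1516 and 1314 genes at an unadjusted p under 0.05 and none of the 10 genes among them.

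Ratios of genes within a sample do not depend on the scaling of the libraries and are given as a description. The ratio of Flt1 to Kdr, the VEGF receptors, had mean log2 values of -0.58 ± 0.08 in RD islets, -0.51 ± 0.08 in HFD islets and -0.58 ± 0.04 in HFD-O304 islets (mean ± SD, n = 7), so that the HFD mean lay above the others by less than the SD of RD and HFD islets and by more than that of HFD-O304 islets. The ratio of Tek to Tie1 was 0.17 ± 0.17 in RD islets, -0.10 ± 0.27 in HFD islets and -0.43 ± 0.18 in HFD-O304 islets. All HFD-O304 samples (at most -0.18) were below every RD sample (at least -0.12) in this ratio, while the HFD samples overlapped both groups. The ratio of Tek to Kdr was -2.56 ± 0.16, -2.61 ± 0.30 and -3.07 ± 0.12. Vegfa per Kdr, ligand over main receptor, was 1.09 ± 0.30 in RD islets, 1.01 ± 0.39 in HFD islets and 1.46 ± 0.25 in HFD-O304 islets, with overlap of all groups.

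**Figure D3:**
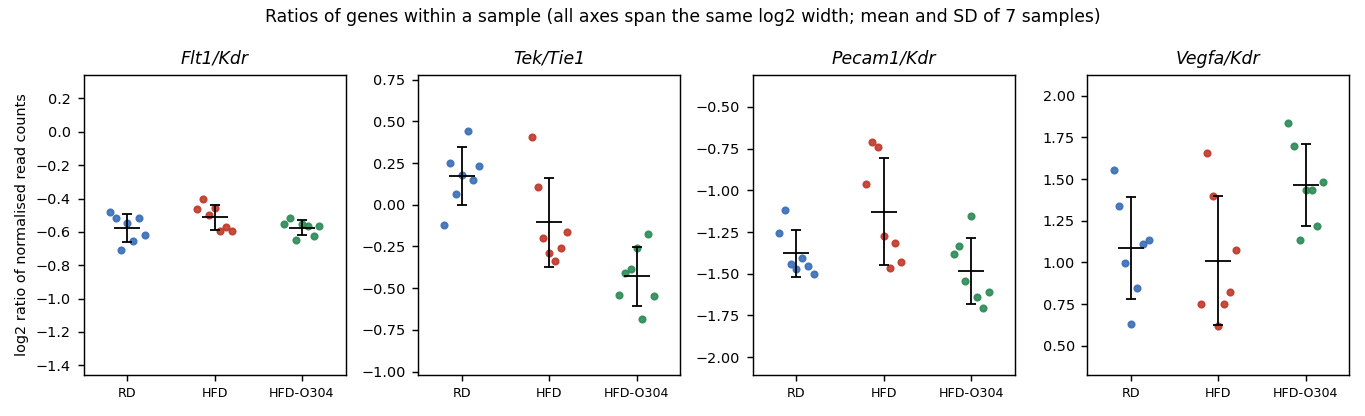
Log2 ratios of normalised read counts (y axes, all of the same width) for pairs of genes in each sample of the 3 groups (x axis), with the mean and SD of 7 samples. The ratio of Flt1 to Kdr has the least spread (SD 0.04 to 0.08), and the ratio of Tek to Tie1 is lowest in HFD-O304 islets (-0.43 ± 0.18).

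Within groups, the 9 endothelial genes varied together from sample to sample. Pearson correlations of log2 values centred on the group means over the 21 samples ranged from 0.30 to 0.97 over the 36 pairs, with a median of 0.60. They describe samples in which all genes share a library and its depth, and were not tested. Kdr, Flt1 and Emcn formed the tightest set, with r of 0.97 for Kdr and Flt1 and 0.95 for Emcn with either. Plvap and Tie1 formed a pair (0.86), and Pecam1 went with Esam (0.79), Tek (0.78) and Cdh5 (0.76). The lowest values were 0.30, for Pecam1 with Plvap and with Tie1. Centred also on the library sets, the 36 values were 0.39 to 0.96 with a median of 0.68, and Kdr with Flt1 was 0.97 in replicates 1 to 4 and 0.91 in replicates 5 to 7.

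**Figure D4:**
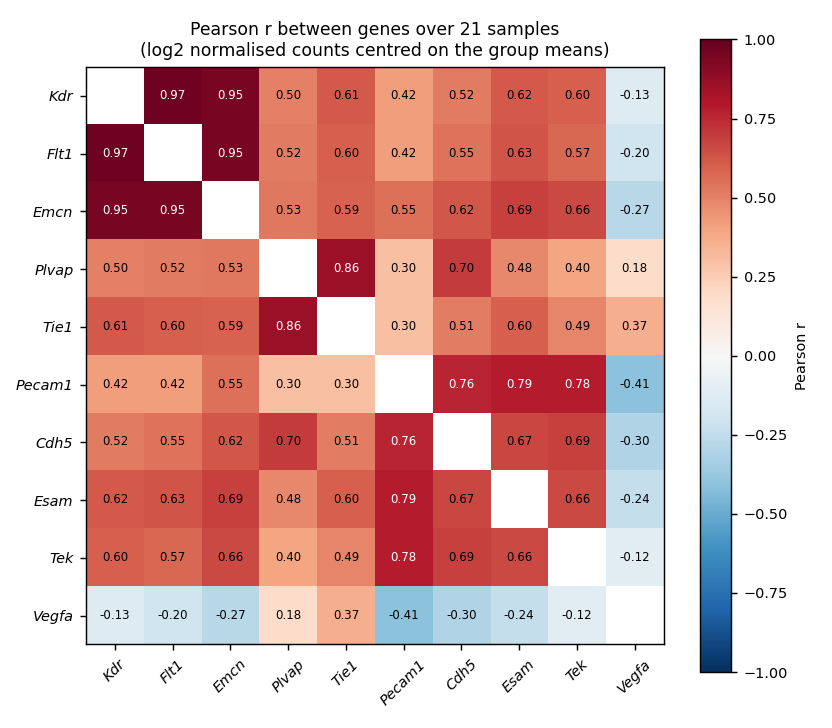
Pearson r (colour and number) between the 10 genes (both axes) over 21 samples, from log2 normalised counts centred on the group means. Kdr, Flt1 and Emcn share values of 0.95 to 0.97, and Vegfa has values of -0.41 to 0.37 with the 9 endothelial genes.

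Relations of Vegfa with the endothelial genes depended on whether the library set was taken into account. Centred on the groups alone, none of the 9 passed the test at an adjusted p under 0.05. Over the 9 genes, r with Vegfa ranged from -0.41 (Pecam1, permutation p 0.0742, adjusted over 9 relations 0.520) to 0.37 (Tie1, permutation p 0.173, adjusted 0.520), and rho from -0.35 (Pecam1) to 0.34 (Tie1), both with an adjusted p of 0.684, from a two-sided permutation test within groups with 100000 permutations. Without the 2 samples farthest from the median of Vegfa, HFD replicates 1 and 4, r was -0.53 for Pecam1 and 0.14 for Tie1. For Kdr, the main receptor, r was -0.13 (permutation p 0.639, adjusted 0.639) and rho -0.15 (permutation p 0.559, adjusted 0.743), and r was -0.20 without those samples. Centred on group and library set and permuted within both, an alternative chosen after seeing the data, r was -0.58 for Kdr (permutation p 0.0377, adjusted over 9 relations 0.113), -0.61 for Flt1 (permutation p 0.0363, adjusted 0.113) and -0.66 for Emcn (permutation p 0.0125, adjusted 0.112). The corresponding rho was -0.62 (permutation p 0.0128, adjusted 0.0574), -0.60 (permutation p 0.022, adjusted 0.066) and -0.74 (permutation p 0.00099, adjusted 0.00891). Emcn was thus the only gene with an adjusted p under 0.05, by rho and not by r. Without the same 2 samples these r were -0.46, -0.46 and -0.61. For Kdr, Flt1 and Emcn r was -0.63, -0.72 and -0.69 over replicates 1 to 4 and -0.22, 0.08 and -0.52 over replicates 5 to 7.

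The genes most like the endothelial profile were looked for among 13206 genes with a mean of at least 50 normalised read counts, by r with the mean of the 9 genes centred on the groups over the 21 samples. The 6 nearest were Flt4 (0.94), the receptor VEGFR3, Epas1 (0.93), which encodes the hypoxia-inducible factor HIF-2α, Adgrf5 (0.90), Mmrn2 (0.90), Lama3 (0.89) and Nrp1 (0.89), a coreceptor of VEGF. Of these, Epas1 (log2 difference -0.52, adjusted p 0.000424) and Lama3 (-0.44, adjusted p 0.00138) fell in HFD-O304 against HFD islets, and Flt4 (-0.07), Adgrf5 (-0.11), Mmrn2 (-0.24) and Nrp1 (-0.09) did not pass. The 6 genes nearest to Vegfa were others, Gigyf1 (0.94), Mllt6 (0.92), Insrr (0.92), Grb7 (0.92), Cacna1b (0.92) and Ulk3 (0.91), among 13215 genes. Cacna1b, a calcium channel subunit, was the only one of the 6 to pass between HFD-O304 and HFD islets (0.48, adjusted p 0.00204), in the direction of the difference in Vegfa.

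The wider VEGF family was counted next. Of 10 ligands and receptors, which include Vegfa, Kdr and Flt1, 2 were called lower and 1 higher in HFD-O304 against HFD islets. Over all genes 6.79% were called lower and 5.08% higher there, which is the background for this and the following lists, and so few calls are given by gene and not read as a result on the family. Vegfc, a ligand of VEGFR3, was 118.6, 121.6 and 161.0 in RD islets, 155.7, 186.4 and 280.5 in HFD islets and 73.8, 105.4 and 130.6 in HFD-O304 islets, so that all HFD-O304 samples were below all HFD samples. It rose by 0.59 (SE 0.14, adjusted p 0.00623) in HFD against RD and fell by 0.91 (SE 0.14, adjusted p 1.95e-05) in HFD-O304 against HFD islets. Pgf, placental growth factor, a ligand of VEGFR1, rose by 0.41 (adjusted p 0.00848) and fell by 0.46 (adjusted p 0.00107) in the same comparisons. The rises in HFD against RD were near the threshold and held in 7 of the 14 fits that left out 1 sample for Vegfc and in 5 of 14 for Pgf, and the falls held in all 14. Vegfd, another ligand of VEGFR3, was scarce, with medians of 26.4 in RD islets, 12.3 in HFD islets and 34.4 normalised read counts in HFD-O304 islets, and it rose by 1.96 in HFD-O304 against HFD islets (SE 0.35, adjusted p 0.000145).

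Of 7 genes of the angiopoietin system, which include Tek and Tie1, 3 were called lower in HFD-O304 against HFD islets. Beside Tek these were Ptprb, the phosphatase VE-PTP that acts on TIE2 (-0.56, SE 0.10, adjusted p 0.000150), and Angpt2, a ligand of TIE2 (-0.40, SE 0.10, adjusted p 0.00679). The call of Angpt2 held in 5 of 14 fits without 1 sample and was lost without HFD-O304 replicate 1 (adjusted p 0.0163). Ptprb was also lower than in RD islets (-0.53, adjusted p 0.00204), as Tek was. Ptprb was 2114, 2667 and 2810 in RD islets, 2062, 2706 and 2971 in HFD islets and 1422, 1724 and 2370 in HFD-O304 islets, with overlap of the groups.

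Of 24 further markers of endothelial cells, 8 were called lower and 0 higher in HFD-O304 against HFD islets, with a median log2 difference of -0.36, where 14 were lower and 0 higher at an unadjusted p under 0.05 and DESeq2 called 10 lower and 0 higher. In HFD against RD islets 2 were called higher (2.00% of all genes), Cd34 and Cd93, the latter in only 3 of 14 fits without 1 sample. Cd34, a sialomucin of the vessel surface, was 809.1, 1001 and 1046 in RD islets, 1045, 1340 and 1390 in HFD islets and 589.3, 686.2 and 828.1 in HFD-O304 islets. It rose by 0.40 (adjusted p 0.00141) in HFD against RD, and in HFD-O304 islets it fell by 0.89 against HFD (adjusted p 7.07e-09) and by 0.49 against RD (adjusted p 0.000340). Clec14a, a lectin-like protein of the endothelial surface, fell by 0.97 (SE 0.10, adjusted p 1.20e-07), and its HFD-O304 samples, 553.8 to 920.1, were below all RD and HFD samples. Cd93 fell by 0.78 (adjusted p 3.88e-06) and Acvrl1, the receptor ALK1, by 0.54 (adjusted p 0.000119).

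Of 7 genes of fenestrae and caveolae, which include Plvap, 5 were called lower and 0 higher in HFD-O304 against HFD islets, with a median of -0.55, and DESeq2 called 6 lower and 0 higher (7 and 0 at an unadjusted p under 0.05 with edgeR). Among them were Cav1, caveolin-1 (-0.80, adjusted p 5.71e-07), its partner Cav2 (-0.55, adjusted p 0.000130), the coat protein Cavin1 (-0.73, adjusted p 2.07e-05) and Ehd2 (-0.83, adjusted p 3.04e-05), which sits at the neck of caveolae. These genes are also expressed in mural cells and fibroblasts. Of 14 transcription factors of the endothelium, 3 were called lower, Mef2c (-0.40), Sox7 (-0.64) and Fli1 (-0.58, adjusted p 0.00232), and 1 higher, Hhex (0.76), which somatostatin cells of the islet also express. Erg, the other ETS factor named with the sequences beside Fli1, did not pass (-0.12, adjusted p 0.546). Binding of either factor to the matches was not tested.

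Genes of capillary lipid uptake differed from each other in direction. Of 8, 3 were called higher and 2 lower in HFD-O304 against HFD islets, and 1 of the lower calls, Tcf15, was lost without HFD-O304 replicate 1 (adjusted p 0.0183). Cd36, a fatty acid transporter, had medians of 74.4 in RD islets, 132.1 in HFD islets and 1229 in HFD-O304 islets, without overlap of any groups, and rose by 3.23 against HFD (SE 0.12, adjusted p 9.44e-17). Fabp4, a fatty acid binding protein, rose by 1.16 in HFD against RD and by 1.52 in HFD-O304 against HFD islets, again without overlap. Lpl, lipoprotein lipase, fell by 1.08 in HFD against RD and rose by 1.08 in HFD-O304 against HFD islets. Gpihbp1, which carries lipoprotein lipase to the capillary lumen, rose against RD in HFD (0.79, adjusted p 8.76e-05) and HFD-O304 islets (0.86, adjusted p 2.72e-05), with a difference of 0.07 between these. Cells other than endothelium also express Cd36, Fabp4 and Lpl, and the cell of origin was not tested.

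Of 13 regulators of vessel growth, 5 were called lower and 1 higher in HFD-O304 against HFD islets, and 0 in HFD against RD islets, where 8 had an unadjusted p under 0.05 and DESeq2 called 3. The 4 with the lowest adjusted p were the apelin receptor Aplnr (-1.09, adjusted p 5.12e-06) and its ligand Apln (-1.13, adjusted p 0.000268), Sema3c, a semaphorin (-1.43, adjusted p 1.20e-05), and Thbs1, the angiogenesis inhibitor thrombospondin-1 (-0.99, adjusted p 5.34e-05). Of 11 Notch pathway genes, the ligand Jag1 fell (-0.70, adjusted p 6.23e-06) and the ligand Dll1 rose (0.92, adjusted p 4.08e-06), and 9 did not pass. Of 15 genes of the hypoxia response, a pathway that induces Vegfa in many tissues, 2 were called lower, Epas1 and Arnt (-0.26), and 2 higher, among them Ndrg1 (0.32, adjusted p 0.000828), with a median of 0.05. The other higher call, Ankrd37, was lost without HFD-O304 replicate 1 (adjusted p 0.0269). Ndrg1 (-0.28, in 3 of 14 fits without 1 sample) and the glucose transporter Slc2a1 (-0.43, adjusted p 0.00266) were called lower in HFD against RD islets.

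**Figure D5:**
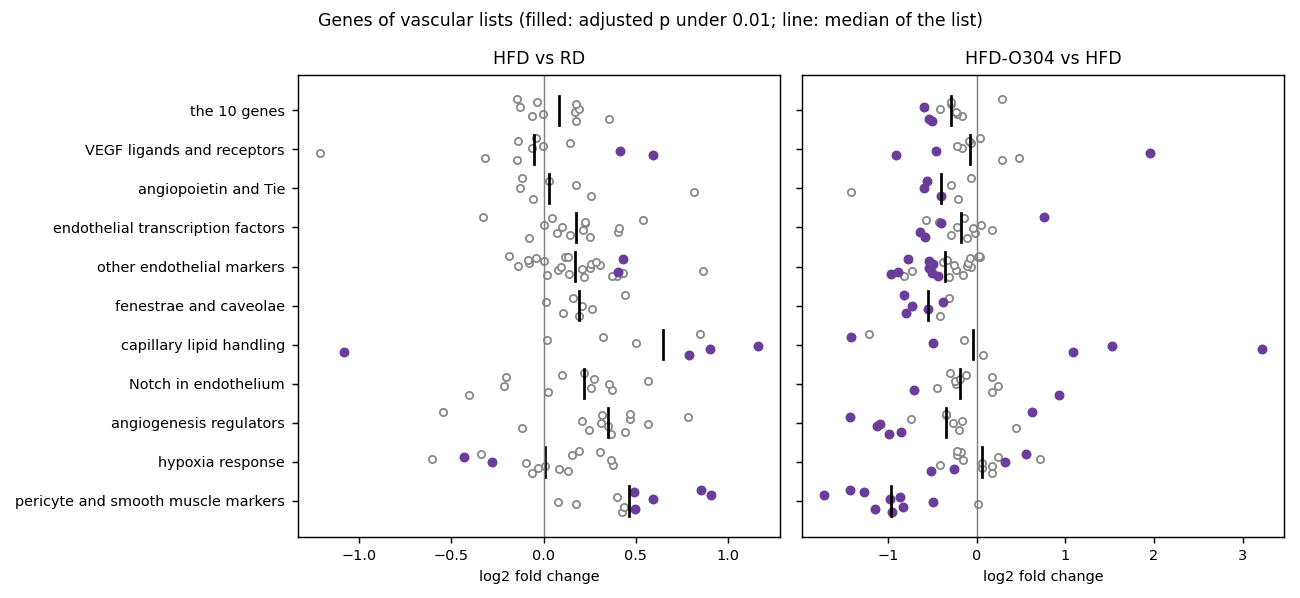
Log2 fold change (x axes) of each tested gene in lists of vascular genes (y axis) for HFD against RD (left) and HFD-O304 against HFD islets (right), filled where the adjusted p was under 0.01, with a line at the median of each list. On the right, pericyte and smooth muscle markers have the lowest median (-0.97), and Vegfa is the lone point above 0 among the 10 genes.

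Markers of the mural cells that wrap the vessels were called in all 3 comparisons, also in HFD against RD, where none of the 10 genes passed. Of 10 markers of pericytes and smooth muscle, 5 were called higher in HFD against RD islets, 9 lower in HFD-O304 against HFD islets and 4 lower in HFD-O304 against RD islets, with medians of 0.46, -0.97 and -0.50. The shares over all genes were 2.00%, 6.79% and 0.903%. Of the 5 calls in HFD against RD islets, those of Acta2 and Tagln held in all 14 fits that left out 1 sample. Those of Notch3, Rgs5 and Myh11 held in 9, 5 and 4 of 14. Without HFD-O304 replicate 1 the 9 calls held and 2 of the 4 did, those of Rgs5 and Myh11 and not those of Acta2 and Abcc9. Their summed level was 11130 to 15409 normalised read counts in RD islets, 14106 to 22666 in HFD islets and 7361 to 11454 in HFD-O304 islets, and no marker of the list was at 0. Acta2, smooth muscle actin, rose by 0.91 (adjusted p 0.000723) in HFD against RD and fell by 1.73 (SE 0.17, adjusted p 2.63e-08) in HFD-O304 against HFD islets. Rgs5, a marker of pericytes, was 6852, 8945 and 10431 in RD islets, 9130, 13122 and 14568 in HFD islets and 4671, 5181 and 7346 in HFD-O304 islets, a fall of 1.15 (SE 0.12, adjusted p 7.67e-08) between the last groups, which did not overlap. Of the contractile apparatus, Tagln fell by 1.44 and Myh11 fell by 1.27. The part of these cells in the values of the 10 genes was not tested.

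Markers of further cell types were counted in HFD-O304 against HFD islets. Of 5 lymphatic markers tested, 3 were called higher, Lyve1 (1.32), Reln (1.31) and Prox1 (0.28, lost without HFD replicate 3 or 4 or HFD-O304 replicate 6), the last of which endocrine cells also express, and Ccl21a had under 10 read pairs. The other 2 did not pass, Flt4 (-0.07, adjusted p 0.765) and Pdpn, which was near the floor with means of 0.6 in HFD and 1.5 in HFD-O304 islets. Which cells these transcripts came from was not tested. Of 6 fibroblast markers, Col3a1 (-1.45, adjusted p 0.000528) and Col1a2 (-0.67) fell, the latter in 3 of 14 fits without 1 sample and not without HFD-O304 replicate 1 (adjusted p 0.0253). Of 8 macrophage markers, 1 was called, Csf1r, which rose (0.45). Most of that list went the other way, with 6 of 8 log2 fold changes under 0 and a median of -0.16. At an unadjusted p under 0.05, edgeR had 3 macrophage markers lower and 1 higher, and DESeq2 called 1 lower and 1 higher. All 5 proliferation markers fell, with a median of -2.18, after a rise in HFD against RD islets with a median of 1.67. Of 5 hormone genes, Gcg rose by 1.21 and Sst by 0.88, while Ins2 fell by 0.23 and Ins1 by 0.20. The call of Ins1 (adjusted p 0.00749) was lost without HFD-O304 replicate 1 (0.0178). In HFD against RD islets Gcg fell by 1.01 and Sst fell by 0.66, the latter in 5 of 14 fits without 1 sample. The part of these changes in the values of the endothelial genes was not tested.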

How the data were processed

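Islet RNA of 21 samples was sequenced as 50-nt paired-end reads (TruSeq libraries). By the methods of the study and the submitters' processing notes, the authors checked reads with FastQC, aligned them with STAR to GRCm38 with Ensembl 96 genes, and deposited STAR's counts of read pairs per gene, not normalised. These counts leave out pairs that match several places or genes. Of the strand columns, the one with the larger count was used (28.8 to 36.3 times the other), and pairs on no gene made up 18.5% to 24.9%. Symbols, loci and exon lengths came from GENCODE M21, and promoter sequences from the RefSeq table of GRCm38.p6.

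Genes with at least 10 read pairs over the samples were tested with edgeR 4.0.16 (quasi-likelihood, TMM, 3 groups in 1 fit, no covariates) in R 4.3.3, with Benjamini-Hochberg adjustment over 27229 genes and an adjusted p under 0.01 as in the study. The method was checked on simulated data. Normalised read counts are counts divided by DESeq2 1.42.0 size factors, and log2 values for correlations used a pseudocount of 1. Total counts per sample ranged from 31746115 to 41559322 in RD, from 27618749 to 44041180 in HFD and from 13809266 to 48922569 in HFD-O304 islets, so that precision rests mainly on the 7 samples per group. No samples of a group agreed within sampling noise (chi-square per gene of 8.05 to 101 over 63 pairs). Plvap overlaps Gtpbp3 on the opposite strand, and pairs from the overlap are kept apart only by strand.

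Groups came from the sample titles, or for HFD replicate 3 from the diet label. The 10 genes, the gene lists and the tests were chosen with earlier results of these data known. The genes named are the 10, up to 4 genes a list with the smallest adjusted p among those called in any comparison, and the 6 genes most like Vegfa and most like the mean of the 9 endothelial genes. Where a list gene is named as 1 of the few called, it falls under the same rule. Some genes that did not pass are named beside the called genes of their list. Alternatives changed the tool, the threshold, the normalisation, the filter, the strand, the groups fitted together, the replicate block and the library set, or left out a sample. The fit without HFD-O304 replicates 1 and 2 together, the fits of list genes without 1 sample and the correlations within library sets were chosen after seeing the data. ChIP-seq was not analysed here. Tables and plots used Python 3.11.15, pandas 2.3.3, scipy 1.17.1 and matplotlib 3.10.9.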

Additional observations from a re-analysis of the deposited data

Results flagged for a closer look

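Esam in HFD-O304 islets had a low sample, replicate 1, with 813.4 normalised read counts against 984.9 to 1067 in the other 6. Its gap to the nearest sample was 0.676 of the range of the group, above Dixon's 95% critical value for 7 samples. It was the only one of 30 groups of values tested in this way, and chance flags about 1 in 20. The same sample, whose diet label reads HFD, was also the lowest HFD-O304 sample for Pecam1, Kdr, Flt1, Tek, Tie1 and Emcn. Without it, Esam differed between HFD-O304 and HFD islets by -0.19 on the log2 scale (adjusted p 0.0494) in place of -0.23 (0.0184).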

How the results depend on the processing

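Of 740 results for single genes of the 10 under the alternatives, 673 kept direction and side of the threshold, 33 passed where they had not, 15 no longer passed and 19 changed sign. The calls of Pecam1, Cdh5 and Tek in HFD-O304 against HFD islets held in all 11 alternatives and all 14 fits without 1 sample. That of Tek against RD held in 10 of 11, the exception being replicates 1 to 4 alone (adjusted p 0.0161). In HFD against RD, 0 of 10 genes passed, and 1, Cdh5, passed with an adjusted p under 0.05, with DESeq2, with the replicate block, and without HFD replicate 7 (0 to 1 over the fits without 1 sample). In HFD-O304 against RD, 2 genes passed, and 3, with Emcn added, passed with an adjusted p under 0.05, with DESeq2, with the 2 groups alone, with the library set and with the replicate block (Emcn adjusted p 0.00133), while 0 passed in replicates 1 to 4, 1 in replicates 5 to 7, 1 without HFD-O304 replicates 1 and 2 together, and 1 to 2 without 1 sample. In HFD-O304 against HFD, 3 passed, and 7 with an adjusted p under 0.05, 7 with DESeq2, 7 with the replicate block, 5 with edgeR's own filter, 5 with the library set as covariate, and 3 to 6 without 1 sample. Emcn passed there in 6 of 11 alternatives and Vegfa in 5 of 11. The cause was not tested.

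The differences that changed sign were near 0 in HFD against RD and never passed. Kdr was 0.0751 in replicates 5 to 7 and -0.121 to 0.0212 without 1 sample, Emcn -0.0712 to 0.0246 without 1 sample, and Flt1 0.0039 with DESeq2, 0.0039 with its size factors, 0.0064 without a filter, 0.0068 with edgeR's filter, 0.0036 with unstranded counts, 0.0052 with the 2 groups alone, 0.0813 in replicates 5 to 7 and -0.0466 to 0.0675 without 1 sample.

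Samples share replicate numbers, and correlations of same-numbered samples were over 0.1 in 15 of 21 pairs (-0.536 to 0.69, mean 0.21, over 13216 genes). Samples correlated best with their own number in 3, 2 and 2 of 7. The numbers were not taken as pairing. The mean was positive, but same-numbered samples also lie in the same library set, so number and set cannot be told apart by it. The main fit leaves out both, so fits with the replicate block and with the library set are given beside it. Over all genes, 963, 356 and 3230 were called in HFD against RD, HFD-O304 against RD and HFD-O304 against HFD. With the replicate block there were 1577, 543 and 3763, with DESeq2 1758, 727 and 4045, with the library set 1611, 543 and 3795, with an adjusted p under 0.05 2148, 785 and 5150, with the 2 groups alone 627, 483 and 2826, in replicates 1 to 4 563, 85 and 2001, and in replicates 5 to 7 307, 228 and 1456. Without 1 sample the first count was 589 without RD replicate 7, 599 without HFD replicate 4 and 1594 without HFD replicate 7, and the second was 221 without RD replicate 3, 235 and 225 without HFD-O304 replicates 1 and 5, and 185 without HFD-O304 replicates 1 and 2 together. Depth limits scarce genes such as Vegfd.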

Other observations

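The mean log2 level of the 9 endothelial genes, set to 0 at the RD mean, ran from -0.16 to 0.13 in RD islets, from -0.19 to 0.31 in HFD islets and from -0.53 to 0.01 in HFD-O304 islets. Within HFD-O304 islets, replicate 3 stood at 0.01 and the other 6 samples between -0.53 and -0.20, and replicate 3 also held the highest Pecam1, Cdh5, Kdr, Plvap, Tek, Tie1 and Emcn of its group.

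Of 6 duct markers, 4 were called higher in HFD-O304 against HFD islets, among them Krt19 (1.15, adjusted p 8.14e-05), Cftr (2.68) and Sox9 (0.89). The other 2, Krt7 (-0.20, adjusted p 0.123) and Spp1 (-0.33, adjusted p 0.138), were the most abundant of the list and did not pass. Both were lower at an unadjusted p under 0.05 (edgeR). The summed level of the 6 markers had a median of 11342 in HFD islets and 10321 in HFD-O304 islets. Cftr was scarce and high in HFD-O304 replicate 4 (81.2 normalised read counts, with a group median of 11.8), without which its log2 difference was 1.83 (adjusted p 0.00318). The call of Sox9 held in 6 of 14 fits without 1 sample, and not without HFD-O304 replicate 1 (adjusted p 0.0118). Of 7 markers of lymphocytes and other leukocytes, Cd79a, of B cells, was called higher (1.19, adjusted p 0.000233), with means of 49.7 in HFD and 115.2 in HFD-O304 islets. The other B-cell markers of the list did not pass and were near the floor. Cd79b (0.06) had means of 2.6 in both groups, and Ms4a1 (-0.02) had means of 1.2 and 1.0. Of 5 adipocyte markers, 1 had at least 10 read pairs over the samples, and it did not pass in any comparison.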
